A study of Mus musculus with 32 samples.

Results

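Livers of chow-fed male C57/BL6 mice treated with Fc-GLP-1 were compared 2 weeks after a 70% partial hepatectomy (PH) with liver tissue taken at the surgery itself. The samples were chosen by their labels, 4 arrays of C+Fc-GLP-1 liver before PH and 4 after, 8 of the 32 arrays of the series. In the study, mice ate standard chow (C) or a methionine- and choline-deficient diet (MCD, or M with drug) for 3 weeks and received Fc-GLP-1 or vehicle in the last 2 weeks. They then underwent PH and stayed on the same diet and treatment for 2 more weeks. Tissue before and after PH may therefore come from the same mice, but the labels pair no samples, and they give no age, feeding state or hour of killing. The sample names and the methods of the study give Fc-GLP-1, a selective GLP1R agonist, while other label text describes an agonist that acts on both GLP1R and GCGR, dosed at 4.4 mg/kg/day. The source text of the 4 C+Fc-GLP-1 arrays after PH names a dual agonist for the time after PH. That of the 4 arrays before PH names Fc-GLP-1 alone, and no other group's source text names a dual agonist. C mice without drug and M+Fc-GLP-1 mice, each with 4 arrays before and 4 after PH, served for comparison.

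After PH, hepatocytes leave quiescence, copy their DNA and divide, and liver mass in mice is largely restored within days. Mitotic cyclins, kinesins and kinetochore proteins are transcribed late in the cell cycle, so their RNA marks cells close to division. Stellate cells lay down matrix and Kupffer cells, the resident macrophages, clear debris while the liver regrows.

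The hepatocyte genes Alb and Hnf4a were well above background on all 8 arrays. Albumin (Alb), the brightest of 39 tested hepatocyte genes, had a mean log2 signal of 9.87 before and 10.17 after PH, where 0 is each array's 75th percentile (log2 difference 0.31, SE 0.27, adjusted p = 0.621). Before array 4 stood at 10.72 for Alb and the other before arrays between 9.54 and 9.65, so this difference rests partly on that array. Hnf4a, a hepatocyte transcription factor, stood at 7.16 and 7.30 (adjusted p = 0.879). Of the 39 hepatocyte genes 18 were higher after PH, with a median log2 difference of -0.05. The samples are whole liver, so more cells of a type and more RNA per cell cannot be told apart in any value that follows. All before arrays lay on a slide that held no after array, so time and slide cannot be told apart. Between 43.1% and 47.9% of probes were well above background on the before arrays and between 50.4% and 61.9% on the after arrays.

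Of 21073 tested genes 176 changed at an adjusted p under 0.05 (0.835% of tested genes), 101 higher (0.479%) and 75 lower (0.356%) after PH. The 4 after values lay wholly on one side of the 4 before values for 164 of the 176, and for 1877 of all tested genes (8.91%), 1026 higher (4.87%) and 851 lower (4.04%). Of the 101 higher genes 40 were not well above background on any before array, against 1237 of all 21073 tested genes. Among the 40, 2 passed the filter only through the after arrays, so they had to differ to be tested at all. Of the 75 lower genes 0 were dim on all after arrays. Of all tested genes 50% were higher after PH and their median log2 difference was 0.00. The split between higher and lower depended on the scaling, 53 and 91 with the median as reference, 159 and 55 with the 75th percentile of bright probes, 381 and 915 after quantile normalization, 365 and 2175 in the authors' values centred per array, and 8034 and 43 in those values as deposited. Without the filter it was 147 and 560. Ppp1r3g, Rgs16, Stmn1, Postn, Cenpp and Cd248 were among 10 genes called with any 1 of the 8 arrays left out, and the total ranged from 19 to 160 in those fits. Called genes are described first, by the gene lists they belong to.

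Among the gene lists, those of mitosis held the most called genes. Over all tested genes 0.479% were called higher. Of 26 tested mitotic cyclins, kinases and checkpoint genes (30 listed) 24 were higher after PH, with a median log2 difference of 1.92, and 7 were called. The groups did not overlap for 18 of the higher genes and for both lower ones (4.87% and 4.04% of all tested genes). The summed signal of this list, brightest in Pttg1, was 42.9, 44.7, 44.7 and 47.8 before and 40.7, 57.5, 73.2 and 47.1 after PH. By that sum after arrays 1 and 4 did not exceed before array 4. Of 36 tested kinetochore, spindle, chromosome and cytokinesis genes (47 listed) 34 were higher, with a median of 1.73, and 4 were called. Not well above background on any before array were 6 of the 26 and 10 of the 36. Without them, a split chosen after the data were seen, 18 of 20 and 24 of 26 were higher, with medians of 1.78 and 1.36. Ccnb1, the mitotic partner of Cdk1, had log2 signals of -4.01, -3.72, -3.76 and -5.87 on before arrays 1 to 4 and of -2.22, -0.14, 0.23 and -1.56 on after arrays 1 to 4. Every after value was above every before value, and after arrays 2 and 3 were highest (log2 difference 3.42, SE 0.73, adjusted p = 0.027). Cdc20, which activates the anaphase-promoting complex, went from -1.98, -1.21, -1.51 and -1.67 to 0.13, 2.56, 2.99 and 0.81, again without overlap and again highest on after arrays 2 and 3 (3.22, SE 0.71, adjusted p = 0.0313). Ube2c, the ubiquitin-conjugating enzyme of that complex, went from -2.58, -1.78, -2.67 and -2.20 to -0.71, 0.59, 1.66 and -0.03 with no overlap (2.69, SE 0.58, adjusted p = 0.0283). The same array order held for Prc1, which bundles midzone microtubules, from -2.71, -3.28, -2.61 and -2.68 to -0.80, 0.52, 1.41 and -0.74 (2.92, SE 0.68, adjusted p = 0.0362). Plk1, a kinase of mitotic entry, rose by 2.66 (SE 0.62, adjusted p = 0.0359), and Cdca3, a trigger of mitotic entry, by 2.43 (SE 0.59, adjusted p = 0.041).

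Some mitotic genes were not well above background on any before array, and for these the fold is a lower bound, with each before value raised to the lowest signal that counted as well above background on its array. By that measure Pbk, a mitotic kinase, rose at least 5.17-fold (adjusted p = 0.0346), Aspm, a spindle pole protein, at least 5.35-fold (adjusted p = 0.0313) and Ndc80, an outer kinetochore protein, at least 3.26-fold (adjusted p = 0.0435). Stmn1, which destabilizes microtubules, went from 0.90, 0.86, 0.96 and 1.37 before to 2.77, 2.88, 3.79 and 2.21 after PH (1.89, SE 0.31, adjusted p = 0.00269). Its groups did not overlap and its lowest after array was array 4. Other called genes among those with the largest rise were Lockd, a noncoding RNA next to Cdkn1b (3.12, adjusted p = 0.0237), Cdkn3, a phosphatase of Cdk1 (2.58, adjusted p = 0.0322), and Arhgef39, a guanine nucleotide exchange factor (2.75, adjusted p = 0.039). Ccnb2 (2.04) and the kinetochore gene Cenpp were also called; both were chosen after their values were seen. Cenpp was not well above background on any before array. The other cell cycle markers tested by name missed the threshold, Ccna2 at 2.10 (adjusted p = 0.0849), Mki67 at 1.96 (adjusted p = 0.0932) and Cdk1 at least 1.94-fold (adjusted p = 0.0771). Without before array 1, before array 4 or after array 3, Ccnb1, Cdc20, Ube2c, Plk1, Prc1, Pbk, Cdca3, Aspm and Ndc80 all lost their calls (adjusted p between 0.0553 and 0.158), while Stmn1 kept its call. Over all 17 alternatives Cdc20 and Ube2c kept their calls in 12 and 13, Ccnb1 in 10, Aspm in 9, Pbk and Ndc80 in 8, Plk1 and Prc1 in 7 and Cdca3 in 5, with adjusted p up to 0.291 (Ndc80). Lockd, Cdkn3 and Arhgef39 kept theirs in 14, 11 and 8 of 17 alternatives (adjusted p up to 0.0892, 0.105 and 0.133). Lockd, Cdkn3 and Plk1 were well above background on only 2 of 4 before arrays, so their sizes rest partly on signal under background. The list medians stayed positive in every fit with an array left out, from 1.56 to 2.21 for the first list and from 1.31 to 2.02 for the second. They were smaller, 0.77 and 0.61, after quantile normalization, and 0.66 and 0.47 in the authors' values centred per array.

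**Figure D1:**
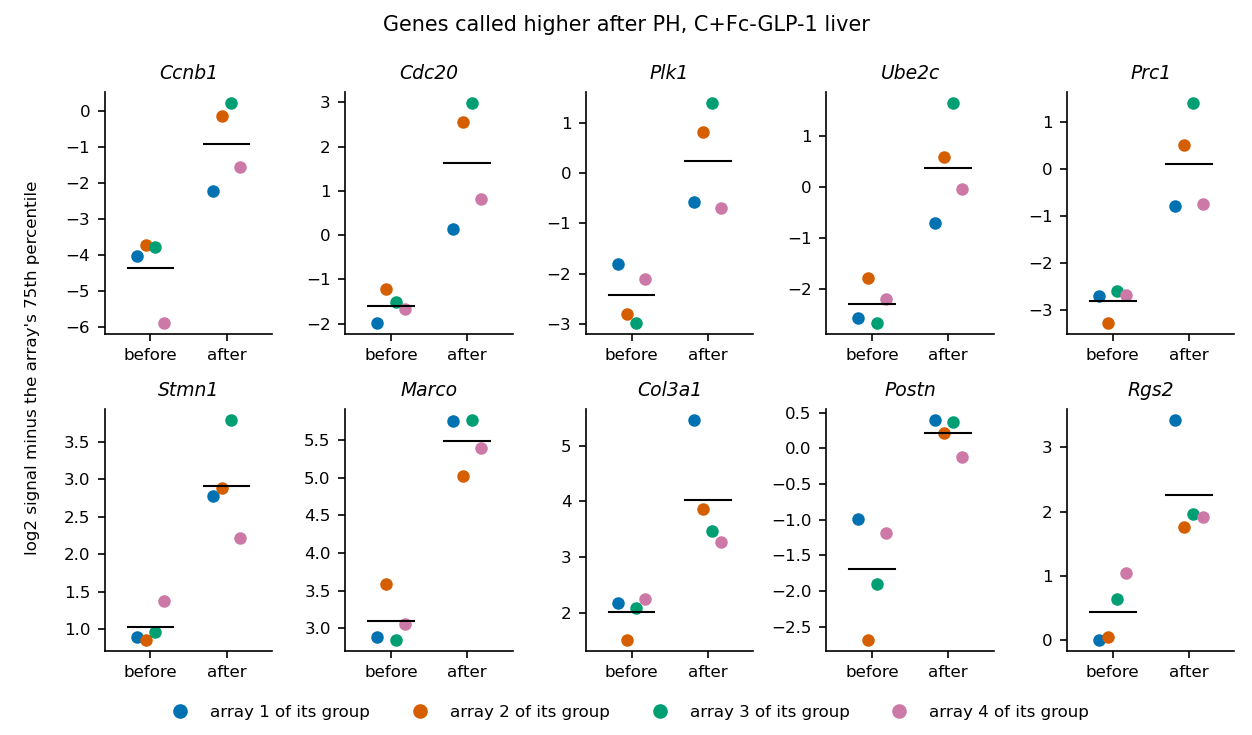
Log2 signal relative to each array's 75th percentile for called genes that were higher after PH, each point an array and each bar a group mean, before and after PH in C+Fc-GLP-1 liver. Ccnb1 and Cdc20 are highest on after arrays 2 and 3 (-0.14 and 0.23 for Ccnb1), and Col3a1 and Marco do not share that order.

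Genes of earlier cell cycle steps gave smaller values. Of 51 tested DNA replication genes 33 were higher, with a median of 0.20 and 0 called by limma. That median was 0.09 without after array 3, 0.08 with the array median as reference and 0.30 with bright probes as reference. Mcm2, a subunit of the replicative helicase, stood at 1.35 (adjusted p = 0.0926) and Gins2, of the same helicase, at 1.21 (adjusted p = 0.137). Pcna, the polymerase clamp, stood at -0.24 (adjusted p = 0.801). The list of 30 G1 cyclins, CDKs and inhibitors had a median of -0.03 and 0 calls. Ccnd1, the D-type cyclin that drives G1, stood at 0.82 (adjusted p = 0.359) and Ccne1, an S-phase entry cyclin, at 0.49 (adjusted p = 0.473). For 31 p53 targets the median was -0.11, with 0 calls and Phlda3, a p53-induced inhibitor of Akt, at 1.70 (adjusted p = 0.0771). Regeneration ligands and receptors had a median of 0.15 over 60 genes, with 0 calls. That median was 0.02 without after array 1, 0.03 with the array median as reference and 0.0 in the authors' centred values. It was 0.25 with bright probes as reference.

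Promoters of the called genes were read from the mouse RefSeq annotation for sites known from cell cycle promoters. Of 101 higher genes 61 matched a RefSeq promoter, as did 38 of 75 lower genes and 11630 of the 21073 tested. TTTGAA or TTCGAA, the core of the cell cycle homology region, was present on either strand in 20 of the 61 (32.8%), 7 of the 38 (18.4%), 16.9% of tested genes and 19.2% of all 32851 promoters. CCAAT was present in 50.8%, 39.5%, 42.3% and 37.4% of these. Of 11 called genes in the mitosis lists 9 matched, 8 with TTTGAA or TTCGAA, 8 with CCAAT and 7 with both. Both were present in 6.87% of tested genes with a promoter and in 7.52% of all promoters. CACGTG, an E-box, was present in 8.20% of the higher genes, 21.1% of the lower genes, 10.9% of tested genes and 7.15% of all promoters, and TGACGTCA, a cyclic AMP element, in 1.64%, 5.26%, 3.27% and 1.79%. A match only describes the sequence and does not show that a factor binds there. The promoters of 4 mitotic genes are printed from 120 bases before to 30 bases after the annotated start in build GRCm38.p6, in the direction of the gene, with matches in capitals. Cdc20 lies at chr4:118437314-118437463 on the minus strand, Ube2c at chr2:164769809-164769958 on the plus strand, Prc1 at chr7:80294331-80294480 on the plus strand, and Ccnb1, with CCAAT matches only, at chr13:100786457-100786606 on the minus strand.

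Cdc20: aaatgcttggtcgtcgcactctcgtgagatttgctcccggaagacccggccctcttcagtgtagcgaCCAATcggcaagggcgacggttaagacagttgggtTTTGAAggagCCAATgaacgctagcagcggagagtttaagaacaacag

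Ube2c: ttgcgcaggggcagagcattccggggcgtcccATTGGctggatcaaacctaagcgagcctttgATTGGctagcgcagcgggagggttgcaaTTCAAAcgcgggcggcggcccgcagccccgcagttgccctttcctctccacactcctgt

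Prc1: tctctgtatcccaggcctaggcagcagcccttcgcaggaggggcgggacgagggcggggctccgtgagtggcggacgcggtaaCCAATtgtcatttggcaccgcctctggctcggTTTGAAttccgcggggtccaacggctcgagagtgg

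Ccnb1: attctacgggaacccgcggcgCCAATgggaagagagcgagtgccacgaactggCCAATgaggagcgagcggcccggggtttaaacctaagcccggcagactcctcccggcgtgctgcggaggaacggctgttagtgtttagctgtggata

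Among stellate cell and myofibroblast genes 3 were called, while 0.479% of all tested genes were called higher. Of 32 tested genes (35 listed) 28 were higher, with a median of 0.71, and Col3a1, Postn and Mmp2 were called. The summed signal of the list, brightest in Ecm1, was 237, 181, 206 and 212 before and 339, 210, 230 and 210 after PH. By that sum only after array 1 lay above all before arrays. Col3a1, a fibrillar collagen, went from 2.19, 1.53, 2.09 and 2.26 to 5.46, 3.86, 3.48 and 3.28, without overlap and highest on after array 1 (2.00, SE 0.45, adjusted p = 0.0346). Postn, a matrix protein that binds collagen, went from -0.99, -2.68, -1.90 and -1.19 to 0.40, 0.21, 0.37 and -0.12, with the after arrays close together and no overlap (1.90, SE 0.31, adjusted p = 0.00269). Mmp2, a gelatinase, rose by 1.74 (adjusted p = 0.039). Cd248, a pericyte and fibroblast surface protein, rose by 1.50; it was chosen after its values were seen. Pdpn, a podoplanin of mesothelium and fibroblasts, went from -4.32, -5.74, -3.16 and -5.54 to 0.37, -2.05, -2.36 and -2.72, highest on after array 1 and without overlap (3.00, SE 0.74, adjusted p = 0.0454); it was well above background on only 1 before array, so this size rests largely on signal under background. Across 62 tested matrix and remodelling genes 51 were higher, with a median of 0.46 and 0 calls in this list; the median was 0.32 after quantile normalization and 0.23 in the authors' centred values, with 36 of 62 higher. Col1a1, the main fibrillar collagen, stood at 1.71 (adjusted p = 0.173), and Acta2, a myofibroblast actin, at 0.66 (adjusted p = 0.592). Without after array 1 the calls of Col3a1, Mmp2 and Pdpn ended (adjusted p = 0.141, 0.161 and 0.198), as they did in 11, 13 and 11 of 17 alternatives in all, while that of Postn ended in 1 (adjusted p = 0.0595).

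Marco, Il15 and Cd3g were called higher in the immune cell and cytokine lists, as were 0.479% of all tested genes. Of 37 tested Kupffer cell and macrophage genes (39 listed) 36 were higher, with a median of 1.07 and Marco alone called. Marco, a scavenger receptor of Kupffer cells, went from 2.88, 3.59, 2.85 and 3.06 to 5.75, 5.03, 5.77 and 5.40, with no overlap and a narrow spread after PH (2.40, SE 0.55, adjusted p = 0.0359). The summed signal of the list, brightest in Cd5l, was 193, 285, 170 and 215 before and 798, 375, 403 and 336 after PH. All 12 tested MHC class II genes were higher, with a median of 0.97, 0 calls and H2-Ab1 as the brightest. Their summed signal was 74.0, 88.4, 60.9 and 67.3 before and 346, 105, 122 and 79.1 after PH, so that after array 4 lay among the before arrays. Neutrophil genes, brightest in Csf3r, had a median of 1.16 over 17 tested genes, 15 of them higher and 0 called. Of the 17, 5 were not well above background on any before array, as were 1237 of all 21073 tested genes. Their list's summed signal was 95.5, 99.8, 77.3 and 169 before and 421, 151, 92.6 and 186 after PH. After arrays 2 and 3 thus lay among the before arrays. S100a8 and S100a9, calgranulins of neutrophils, stood at 2.04 (adjusted p = 0.137) and 2.03 (adjusted p = 0.0988). Of 39 cytokines and chemokines 35 were higher, with a median of 0.76, and Il15, a growth factor of NK and memory T cells, rose at least 2.43-fold (adjusted p = 0.0481). T and NK cell genes had a median of 0.41 over 34, with Cd3g, a chain of the T cell receptor complex, called at 1.61 (adjusted p = 0.039) from a probe well above background on only 2 before arrays. Of 20 B and plasma cell genes 19 were higher, with a median of 0.60, and of 38 interferon response genes 30, with a median of 0.23; neither list held a called gene. Marco, Il15 and Cd3g kept their calls in 8, 5 and 9 of 17 alternatives, and lost them without after array 1 (adjusted p = 0.108, 0.158 and 0.126).

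After array 1 stood apart in these lists. It was highest in Kupffer cell genes (mean log2 signal 3.11, against 1.71, 1.64 and 1.42 on after arrays 2 to 4), neutrophil genes (0.40, against -0.82, -1.40 and -0.68), MHC class II genes (2.59, against 1.32, 1.33 and 0.88) and stellate cell genes (1.61, against 0.73, 0.62 and 0.83). The same array had the lowest mean of the hepatocyte genes (5.18, against 5.83, 5.78 and 5.94) and the highest of 5 mesothelium markers (0.30, against -1.83, -2.45 and -2.24). Mitotic genes did not share this order, with means of -1.11, -0.22, 0.31 and -1.02 for the cyclin and kinase list on after arrays 1 to 4 and between -2.26 and -2.17 before PH. The list medians stayed positive with any array left out, from 0.66 to 1.27 for Kupffer cell genes, 0.54 to 1.24 for MHC class II genes, 0.79 to 1.40 for neutrophil genes and 0.52 to 0.77 for stellate cell genes. They also stayed positive under every scaling, though the neutrophil median was 0.53 after quantile normalization and 0.25 in the authors' centred values. In these 2 scalings the medians of T and NK cell genes were 0.21 and 0.09 (19 of 34 higher in the second), of B and plasma cell genes 0.32 and 0.21, and of cytokines 0.41 and 0.35.

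**Figure D2:**
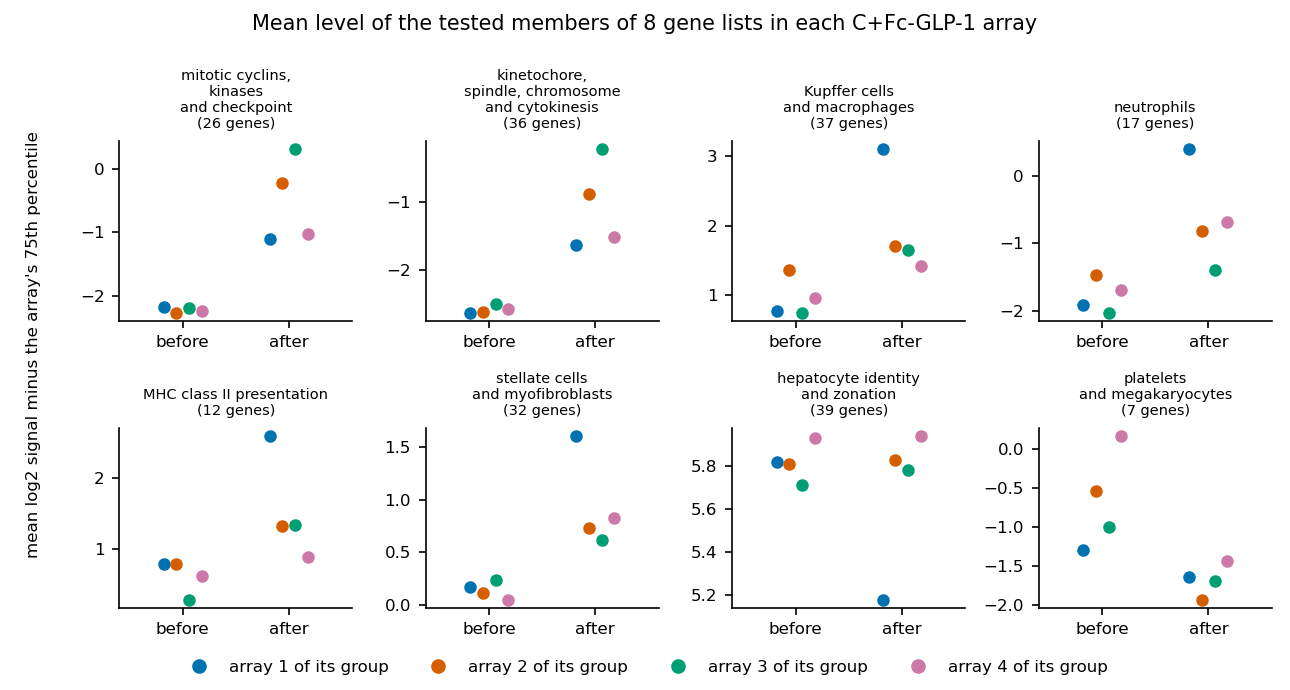
Mean log2 signal of 8 gene lists, relative to each array's 75th percentile, on before and after arrays of C+Fc-GLP-1 liver, each point an array. Kupffer cell, neutrophil and MHC class II genes are highest on after array 1 (3.11, 0.40 and 2.59), and mitotic genes on after array 3 (0.31).

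The largest falls were in Ppp1r3g and Rgs16. Ppp1r3g, which directs protein phosphatase 1 to glycogen, had log2 signals of 2.39, 1.63, 3.40 and 0.19 before and -1.98, -3.24, -1.45 and -3.72 after PH, a fall without overlap (-4.50, SE 0.82, adjusted p = 0.0127). Rgs16, which shortens signalling by Gi- and Gq-coupled receptors, went from 5.67, 4.39, 6.04 and 6.16 to 2.12, 0.26, 1.48 and 1.31 with more than 2 log2 units between the groups (-4.27, SE 0.53, adjusted p = 0.000135). Both calls held in all 17 alternatives. Of 56 tested genes of glycogen, gluconeogenesis, glycolysis and insulin signalling 43 were lower, with a median of -0.30, and Ppp1r3g, G6pdx and Foxo3 were called. G6pdx, the first enzyme of the pentose phosphate pathway, went from 3.05, 2.80, 4.55 and 2.56 to 2.47, 1.49, 1.57 and 1.00, with after array 1 just under before array 4 (-1.61, SE 0.40, adjusted p = 0.0461), and lost its call with each of the 8 arrays left out in turn. Foxo3, a transcription factor restrained by insulin, went from 2.23, 0.91, 1.16 and 2.27 to 0.13, 0.33, -0.20 and 0.85 (-1.37, SE 0.31, adjusted p = 0.0359); with the mean over its probes instead of the brightest it stood at 0.13 (adjusted p = 0.957). It kept its call in 8 of 17 alternatives, 3 of them among the 8 with an array left out (adjusted p up to 0.121 in these). The other glycogen-targeting subunits stood at -1.26 (Ppp1r3b, adjusted p = 0.0782) and 0.02 (Ppp1r3c, adjusted p = 0.994). The medians of glycogen and glucose genes, lipogenesis, immediate early and heat shock genes were positive in the authors' values as deposited (0.23, 0.44, 0.34 and 0.30), where the median of all tested genes was 0.49. After quantile normalization lipogenesis and immediate early genes had medians of -0.02 and -0.03, and 12 of 22 heat shock genes were lower.

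Lipid genes showed single calls. Lpin1, a phosphatidate phosphatase and coactivator, went from 4.52, 3.66, 3.15 and 4.15 to 1.08, 1.92, 1.77 and 2.56 with no overlap (-2.04, SE 0.36, adjusted p = 0.00906). It was the called gene among 39 of lipogenesis and triglyceride synthesis, of which 26 were lower, with a median of -0.28; Fasn, the fatty acid synthase, stood at -1.09 (adjusted p = 0.227). Fabp5, a fatty acid carrier, went from 7.44, 6.80, 8.23 and 8.18 to 6.39, 5.69, 5.95 and 5.88, all under the before values (-1.69, SE 0.38, adjusted p = 0.0324). Fgf21, a fasting hormone of liver, had 1.21, -1.0, 0.86 and 1.22 before and -1.06, -0.19, -2.0 and -3.54 after PH. Its groups overlapped, since before array 2 lay under after array 2 (-2.27, SE 0.54, adjusted p = 0.039). Its promoter at chr7:45615461-45615610, on the minus strand of the same build, holds CACGTG. Lpin1, Fabp5 and Fgf21 kept their calls in 15, 9 and 9 of 17 alternatives, with adjusted p up to 0.0563, 0.102 and 0.171.

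Fgf21: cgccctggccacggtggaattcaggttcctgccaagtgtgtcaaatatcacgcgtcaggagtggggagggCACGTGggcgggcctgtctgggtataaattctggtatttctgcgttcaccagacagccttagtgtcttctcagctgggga

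Of 39 PPAR alpha targets and fatty acid oxidation genes 21 were higher, with a median of 0.08 and Fgf21 the called gene. Cholesterol genes had a median of 0.09 over 34 and 0 calls. Both medians turned negative with the array median as reference. Without after array 1 the PPAR alpha median was 0.27, with 30 of 39 genes higher, and without after array 3 it was -0.07. Cyp7a1, the first enzyme of bile acid synthesis, stood at -0.87 (adjusted p = 0.514).

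Among 31 tested immediate early genes the median was -0.26, with 1 gene called in each direction. That median was -0.63 without after array 1, -0.47 without before array 3 and -0.41 without before array 4. Egr1, a zinc finger factor induced by growth signals, went from 5.78, 5.12, 3.93 and 5.67 to 3.22, 1.74, 3.90 and 3.02, with after array 3 at nearly the level of before array 3 (-2.15, SE 0.46, adjusted p = 0.0264). Fos, an AP-1 subunit, stood at -2.08 (adjusted p = 0.106). Rgs2, a regulator of Gq signalling, went the other way, from 0.01, 0.05, 0.64 and 1.04 to 3.43, 1.76, 1.96 and 1.92, highest on after array 1 and without overlap (1.83, SE 0.44, adjusted p = 0.039). Zbtb16, a zinc finger repressor, fell by 2.04 (adjusted p = 0.0313). Clock genes had a median of -0.12 over 27 and 0 calls, with Per1 at -1.40 (adjusted p = 0.228), Nr1d1, the repressor REV-ERB alpha, at -1.18 (adjusted p = 0.227), Dbp, a clock output factor, at -0.81 (adjusted p = 0.601) and Arntl, the activator BMAL1, at 0.23 (adjusted p = 0.905). Egr1, Rgs2 and Zbtb16 kept their calls in 11, 9 and 11 of 17 alternatives, with adjusted p up to 0.0974, 0.178 and 0.104.

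**Figure D3:**
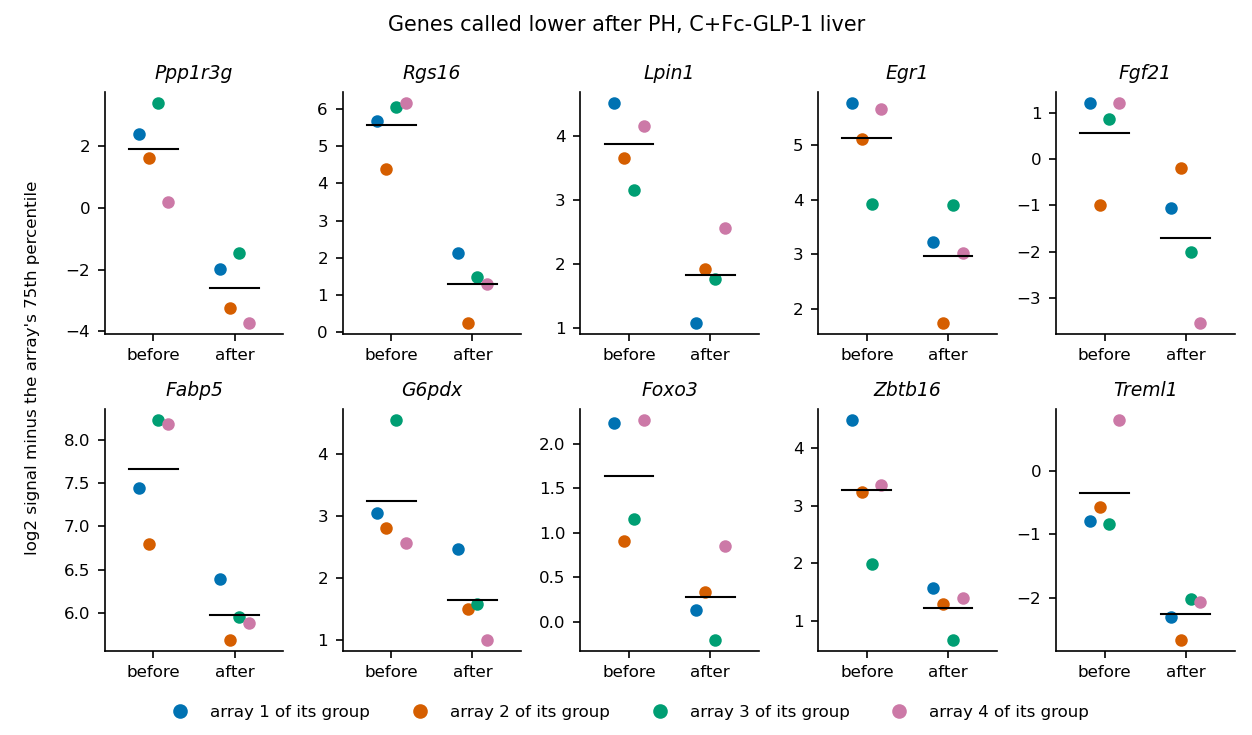
Log2 signal relative to each array's 75th percentile for called genes that were lower after PH, each point an array and each bar a group mean, before and after PH in C+Fc-GLP-1 liver. Rgs16 falls from between 4.39 and 6.16 to between 0.26 and 2.12, while the groups of Fgf21 overlap.

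The remaining lists held few or no calls. Platelet and megakaryocyte markers, brightest in Pf4, had a median of -0.84 over 7 tested genes, 6 of them lower. That median was -0.41 without before array 4, which had the highest mean of the list (0.17, against -1.29, -0.53 and -1.0), and -1.18 without before array 1. Treml1, a receptor of platelet granules, went from -0.78, -0.57, -0.83 and 0.81 to -2.30, -2.66, -2.02 and -2.07 with no overlap and before array 4 highest (-1.92, SE 0.35, adjusted p = 0.013, up to 0.0595 over 17 alternatives, of which 15 kept the call). Heat shock genes were lower in 19 of 22, with a median of -0.24 and 0 calls. That median was -0.39 without before array 1 or without after array 2, and -0.14 with bright probes as reference. Bag3, a cochaperone, stood at -1.24 (adjusted p = 0.0587). Adh7, a retinol-oxidizing alcohol dehydrogenase, was the called gene among 35 of retinoid storage and retinoic acid (median 0.04), at least 1.64-fold higher (adjusted p = 0.0452), and it lost its call with each of the 8 arrays left out in turn. Acute phase genes (median 0.09 over 37), stress response genes of the endoplasmic reticulum (0.06 over 31), sex-biased and growth hormone genes (-0.02 over 33) and fetal and progenitor genes (0.32 over 18) held 0 calls. Small list medians changed sign with the scaling: acute phase, endoplasmic reticulum and retinoid genes to -0.03, -0.06 and -0.07 with the array median as reference, hepatocyte, G1 and growth hormone genes to 0.06, 0.08 and 0.09 with bright probes as reference, and p53 targets to 0.16 after quantile normalization. Without after array 1 the medians of fetal, hepatocyte, growth hormone and mesothelium genes turned to -0.07, 0.06, 0.27 and -0.45. With other arrays left out those of PPAR alpha and endoplasmic reticulum genes reached -0.07 and -0.11. Lcn2, a siderophore-binding acute phase protein, stood at 2.45 (adjusted p = 0.16) and H19, a fetal noncoding RNA, at least 3.75-fold higher (adjusted p = 0.184). The bound for H19 holds for its brightest probe only, since its 6 probes had log2 differences from 0.19 to 2.61.

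Markers of tissues other than liver were mostly dim. Of 8 adipose markers 5, among them Adipoq and Lep, and of 10 skeletal muscle markers 8, among them Ckm and Acta1, were too dim to test. Summed adipose signal, from 3 genes with Cidec the brightest, was 0.321, 0.472, 0.623 and 0.757 before and 4.80, 1.03, 1.19 and 0.559 after PH, highest on after array 1. Mesothelium markers, brightest in Krt19, summed to 1.74, 1.16, 2.94 and 1.41 before and 11.8, 2.44, 1.96 and 2.39 after PH; Upk1b and Upk3b were too dim to test. Msln, a mesothelial surface protein, stood at 3.13 (adjusted p = 0.0756). Erythroid markers (median 0.04 over 8, brightest Hba-a1), endothelial markers (0.10 over 17, brightest Clec4g) and exocrine pancreas and gut markers (-0.39 over 8, brightest Fabp2) held 0 calls. With the array median as reference the first 2 medians were -0.08 and -0.01, and the third was -0.01 after quantile normalization and -0.15 without before array 1. The genes measured by PCR in the study were picked for these same mice, so their direction is not independent. Of 17 such genes tested here 15 were higher, with a median of 0.36, and Mmp2 was called higher and Fgf21 lower. That median was 0.22 after quantile normalization and 0.12 in the authors' centred values, with 12 of 17 higher. Tnf, an inflammatory cytokine, stood at least 2.06-fold higher (adjusted p = 0.305), and Il1b and Adgre1, the macrophage marker F4/80, at 1.10 (adjusted p = 0.261) and 1.42 (adjusted p = 0.244). Glp1r, the receptor of GLP-1, was well above background on 1 before and 3 after arrays and stood at 0.35 (adjusted p = 0.793).

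**Figure D4:**
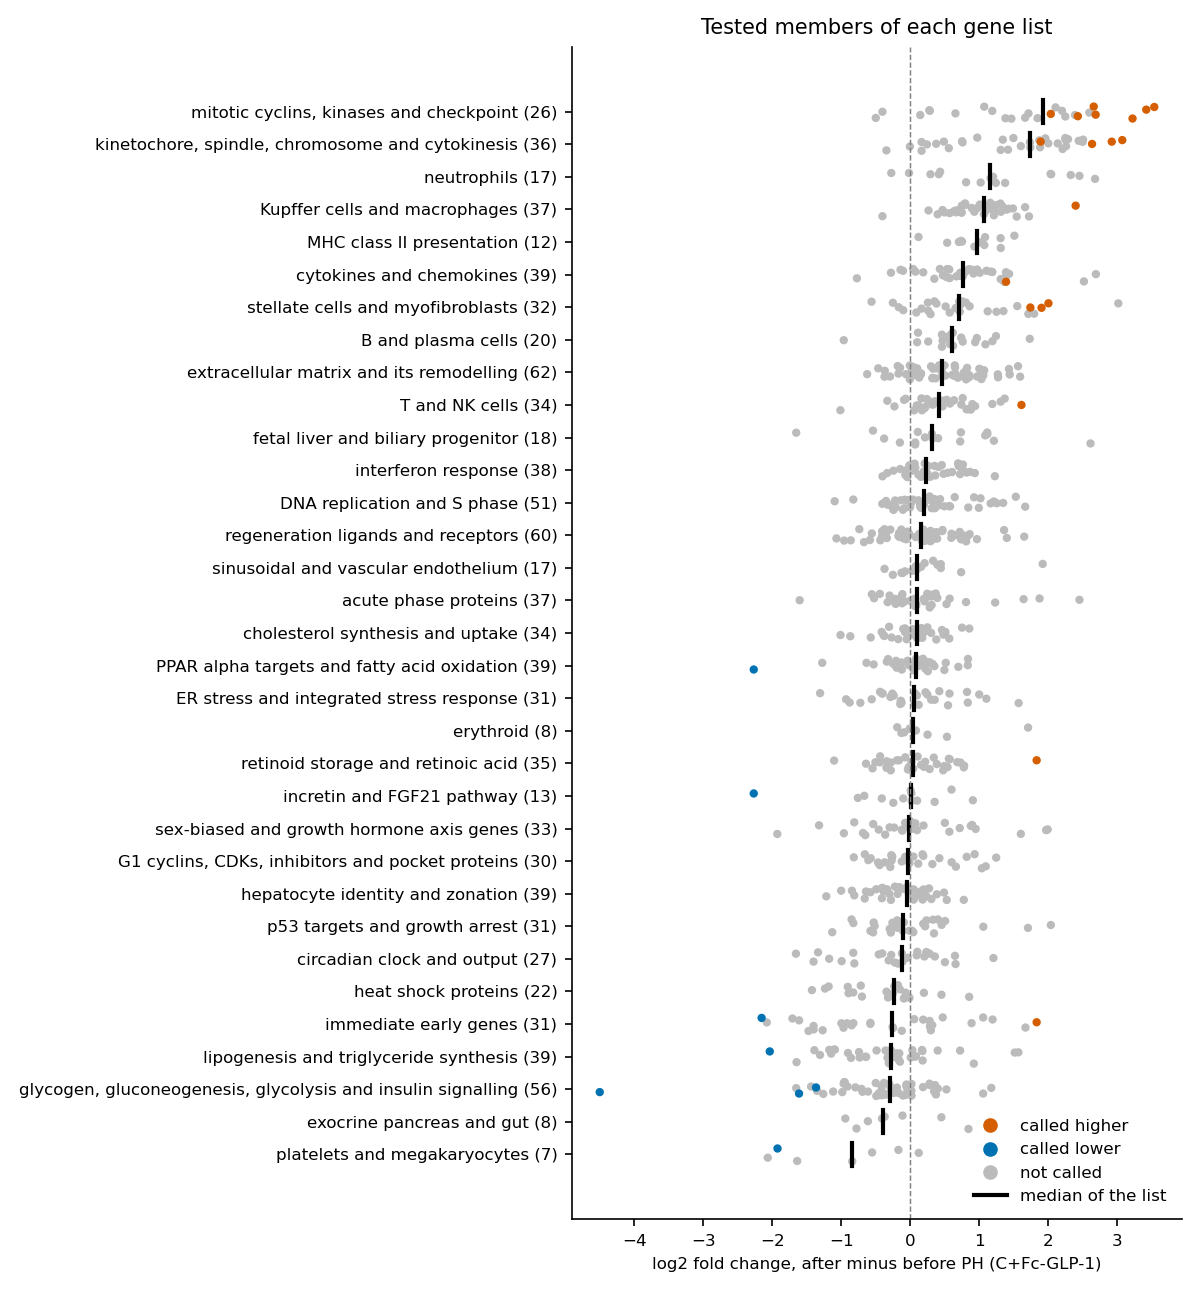
Log2 difference after versus before PH in C+Fc-GLP-1 liver for the tested genes of 33 lists, each point a gene (orange called higher, blue called lower), with the list median. The mitotic lists (medians 1.92 and 1.73) and the neutrophil and Kupffer lists (1.16 and 1.07) lie highest, and platelet markers (-0.84) lowest.

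In C mice, which had no drug, 2942 genes (14.0% of tested genes) were called after versus before PH, 1283 higher and 1659 lower. Of the 101 genes higher in C+Fc-GLP-1 mice 48 (47.5%, and 3.74% of the 1283) were also higher in C, and of the 75 lower genes 30 (40.0%, and 1.81% of the 1659) were also lower. Ccnb1 and Cdc20 stood at 2.73 and 2.87 in C mice, Stmn1 at 1.90, Ppp1r3g at -4.11 and Rgs16 at -5.30. The difference between the changes was called for 232 genes (1.10% of tested genes), 192 higher and 40 lower in C+Fc-GLP-1 mice, of which 9 were also called in C+Fc-GLP-1 liver itself. This split was 147 and 88 with the median as reference, 436 and 167 after quantile normalization and 387 and 142 in the authors' centred values. For Ndc80 the 2 changes differed (adjusted p = 0.0216, from 0.0121 to 0.0684 over the alternatives, with 4 of 17 ending the call), with -1.41 in C mice. Its probe was not well above background on any before array of C+Fc-GLP-1 mice, so the size of this difference is not exact. In both mitosis lists the median difference was small, 0.17 and -0.26. The after arrays of C mice were on a slide of their own. They were read on another scanner than the before arrays of C mice and all C+Fc-GLP-1 arrays. In this difference drug, slide and scanner cannot be told apart, nor time, slide and scanner in the change within C mice.

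In M+Fc-GLP-1 mice 361 genes (1.71% of tested genes) were called, 173 higher and 188 lower. Of the 101 and 75 genes, 9 (8.91%, and 5.20% of the 173) and 3 (4.00%, and 1.60% of the 188) were called in the same direction. At each time these mice shared a slide with the C+Fc-GLP-1 mice, so a constant slide effect cancels in the difference between the changes, which was called for 20 genes (0.0949% of tested genes), 10 in each direction. This split was 2 higher and 10 lower with the median as reference, 1 and 5 after quantile normalization and 1 and 8 in the authors' centred values. The cyclin and kinase list had a median of -0.63 in M+Fc-GLP-1 mice, where 5 of 26 genes were higher after PH, and a median difference of 2.74; for the kinetochore list these were -0.33, 11 of 36 and 1.77. Ccnb1 in M+Fc-GLP-1 liver went from -0.09, -1.84, -3.68 and -0.60 before to -4.79, -3.06, -3.79 and -2.19 after PH, with before array 3 at the level of the after arrays (-1.91, adjusted p = 0.176, against 3.42 in C+Fc-GLP-1). In M+Fc-GLP-1 mice 0 genes of either list were called. The difference was 5.32 (SE 1.03, adjusted p = 0.0323, from 0.0196 to 0.243 over the alternatives). For Cdc20 the value was -1.86 (adjusted p = 0.178) and the difference 5.08 (SE 1.01, adjusted p = 0.0433, from 0.0132 to 0.138), and for Lockd -1.41 (adjusted p = 0.28) and 4.52 (SE 0.92, adjusted p = 0.0437, from 0.0274 to 0.152). In M+Fc-GLP-1 mice Fabp5 stood at 0.95 (adjusted p = 0.196), which made a difference of -2.63 (SE 0.53, adjusted p = 0.0437, from 0.00716 to 0.112). Cela1, a pancreatic elastase, had the difference that held best, from -1.73 to -2.67 in C+Fc-GLP-1 mice and higher by 3.03 in M+Fc-GLP-1 mice (-3.97, SE 0.52, adjusted p = 0.00044, at most 0.0436 in all 17 alternatives). The calls for Ccnb1, Cdc20, Lockd and Fabp5 ended in 9, 11, 11 and 10 of the 17 alternatives.

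**Figure D5:**
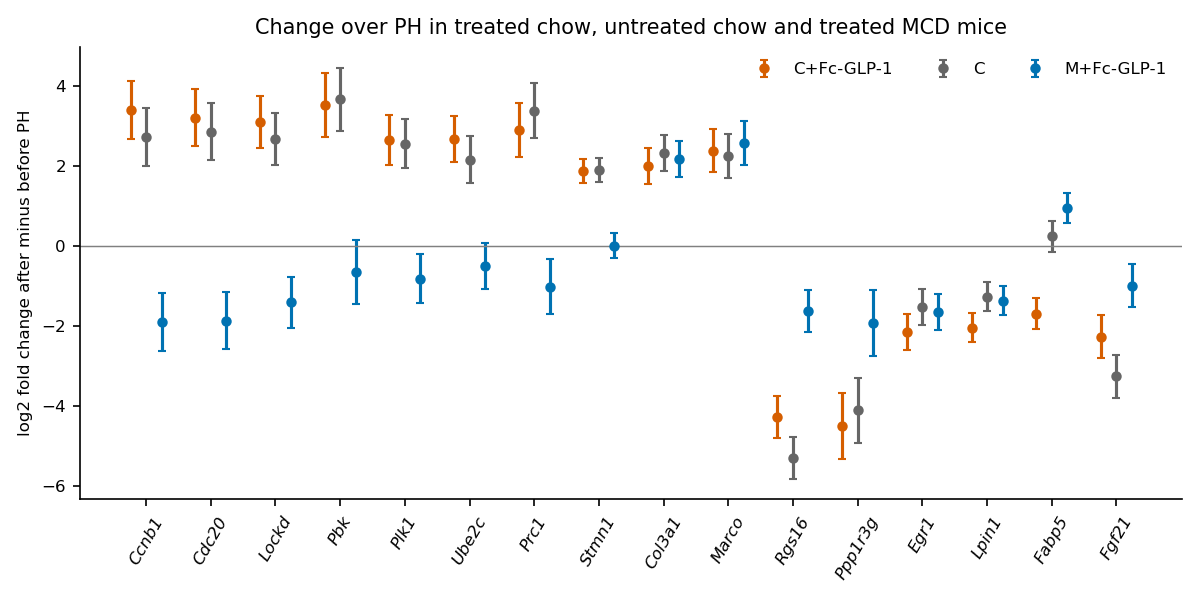
Log2 difference after versus before PH with standard error for named genes in M+Fc-GLP-1, C+Fc-GLP-1 and C liver, 4 arrays per group and time. Ccnb1 and Cdc20 are higher after PH in C (2.73 and 2.87) and C+Fc-GLP-1 (3.42 and 3.22) and stand at -1.91 and -1.86 in M+Fc-GLP-1, where neither was called.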

How the data were processed

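RNA of 32 liver samples was hybridized by the authors to Agilent SurePrint G3 mouse arrays in one colour. The values used are the processed signals of each array, background-subtracted intensity per the file headers, and the deposited table of the authors holds log2 values. All 59305 non-control spots of an array were averaged per probe on the log2 scale after subtracting the array's 75th percentile; 426 probes whose spots were all outliers on an array were dropped. The filter asked for signal well above background in every array of some group of 4, which left 28937 probes. Each of 21073 genes took the values of its brightest remaining probe. Genes were named by RefSeq accession where the probe gave one.

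Group means were fitted over all 32 arrays with limma 3.58.1 in R 4.3.3, with arrays treated as separate mice because the labels pair none, although the tissue before PH was removed at the surgery and may come from the same mice, Benjamini-Hochberg adjustment over all tested genes and a threshold of 0.05. The fit was tested on simulated data with 200 changed genes, of which it called 159, all with the right sign, besides 13 unchanged genes. Tables and promoter matches were made with Python 3.11.15, numpy 2.4.6 and pandas 2.3.3. Promoters were searched from 250 bases before to 50 after the start in mouse RefSeq GRCm38.p6. Array coordinates, which use an older build, were left out.

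Named genes were the 12 largest called changes in each direction with groups that do not overlap, the genes the study measured by PCR, called members of each list (up to 6, or the 2 with the lowest p where none was called), genes that mark the steps of the cell cycle and other ordered lists, and the 3 largest called differences from C and from M+Fc-GLP-1 mice in each direction. The text does not print every gene this rule gives, and 3 are not reported here. The 37 gene lists and the members were chosen with earlier results of these data known. Alternatives were quantile normalization after normexp, the median or bright probes as reference, the authors' values as deposited and centred, no filter, averaging probes, a model restricted to the groups compared, a replicate block, array weights and each array left out in turn. The other groups of the series entered the filter and the spread and, for C and M+Fc-GLP-1, the differences.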

Additional observations from a re-analysis of the deposited data

Results flagged for a closer look

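In 254 checks of a named gene within a group of 4 arrays, 19 had 1 array far from the other 3, by the gap to its nearest neighbour as a share of the group's range, and chance alone does this in about 1 in 20 groups. Among before arrays, array 4 was far off for Ccnb1 (0.865, at -5.87), Treml1 (0.842, at 0.81), Sparc (0.964, at 4.94), Alb (0.911, at 10.72) and a probe without a gene name (0.864). Array 2 was far off for Prc1 (0.85, at -3.28), Fgf21 (0.839, at -1.0), Socs2 (0.891, at 0.85), Tnni2 (0.843, at -2.96) and 2 probes without a gene name (0.929 and 0.838). For 2 more probes without a gene name it was array 1 (0.898) and array 3 (0.884). After array 1 stood out for Rgs2 (0.881, at 3.43), Fbxl21 (0.848, at -4.46), Tnfrsf13b (0.856, at -0.75), H2-Eb1 (0.833, at 6.40) and Sox9 (0.897, at 0.45), and after array 2 for Per1 (0.844, at 3.1). The 75th percentile of intensity was 222 on before array 4 and between 249 and 255 on the other before arrays (0.845).

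The change over PH differed from that in C mice, by a test of the difference itself, for Ndc80 (4.04, adjusted p = 0.0216), 5830444B04Rik (-3.60, adjusted p = 0.0439, but from 0.00623 to 0.143 over 17 alternatives, of which 7 kept the call), Olfr94 (-3.30, adjusted p = 0.00963) and 4 probes without a gene name (5.98, -3.79, 6.07 and 6.16). Ndc80 was not well above background on any before array of the C+Fc-GLP-1 mice, nor was Olfr94 on any of the 8 C+Fc-GLP-1 arrays, so the sizes of these 2 differences rest on signal under background and are not exact. The change differed from that in M+Fc-GLP-1 mice for Ccnb1 (5.32, adjusted p = 0.0323), Cdc20 (5.08, adjusted p = 0.0433), Lockd (4.52, adjusted p = 0.0437), Fabp5 (-2.63, adjusted p = 0.0437), Cela1 (-3.97, adjusted p = 0.00044), Vmn2r5 (-5.06, adjusted p = 0.0032) and 2 probes without a gene name (3.44 and -3.83). Vmn2r5 was well above background on 0 before arrays and 1 after array of the C+Fc-GLP-1 mice. Over 17 alternatives the probe at 3.44 kept its call in 4 (adjusted p up to 0.112). Vmn2r5 kept its call in 14 and the probe at -3.83 in 16 (adjusted p up to 0.138 for each).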

How the results depend on the processing

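The count of 176 called genes was 1296 after normexp and quantile normalization, 2540 in the authors' values centred per array, 8077 in those values as deposited, 707 without the filter and 53 when only the 8 arrays compared were fitted; with 1 array left out it ranged from 19 to 160. A replicate block gave 51. The labels do not say whether equal numbers mark the same mouse, and the data do not decide it. Correlations of residuals from the group means averaged 0.041 for arrays with the same number and -0.0135 for other numbers. Residuals add to nothing within a group, which ties these averages together, so the value for other numbers is no independent comparison. Of 4 before arrays 1 correlated best with its own number. With 4 arrays per group this check can neither show nor exclude pairing. All-gene medians moved to 0.11 with bright probes as reference, to -0.11 with the median, to -0.12 in the authors' centred values and to 0.49 in the deposited ones. The difference from C mice, 232 genes, was called for 603 with quantile normalization and 529 in the authors' centred values, and ranged from 132 to 233 with 1 array left out. The difference from M+Fc-GLP-1 mice, 20 genes, was called for 6, 9, 12, 7 and 4 with quantile normalization, the authors' centred values, the median, no filter and only the groups compared. It was called for 30 with the replicate block and ranged from 5 to 23 with 1 array left out.

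Of 41 called genes named, all but Foxo3, at 0.13 with the mean over probes, kept their sign in the 17 alternatives other than the values as deposited, where 168 of all 176 called genes kept it. Calls were kept by 26 with quantile normalization, 29 with the median, 27 in the authors' centred values, 15 with only the groups compared and 22 with the block, and lost by 12 to 33 with 1 array left out. Of 86 named genes that were not called, 17 gained a call with quantile normalization and 16 in the authors' centred values. Genes that were not called turned in sign as follows. In the authors' centred values Cdkn2a stood at -0.01, Slc4a1 -0.01, Tnni2 -0.08, Pvalb -0.08, Ifng -0.32, Gzmb -0.06, Glp1r -0.12, Ccne1 -0.10, Pcna 0.15 and Srebf1 -0.08. With quantile normalization Pvalb stood at -0.13, Ifng -0.07, Dpp4 0.01, Ccne1 -0.07, Pcna 0.22, Srebf1 -0.02 and a probe without a gene name 0.06. Dpp4 stood at 0.00 with bright probes as reference and Ppp1r3c at -0.10 with the median. With 1 array left out the ranges were -0.44 to 0.02 for Lipe, -0.49 to 0.85 for Ccl2, -0.02 to 0.38 for Ifng, -0.33 to 0.61 for Gzmb, -0.21 to 0.01 for Dpp4, -0.02 to 0.75 for Glp1r, -0.50 to 0.18 for Pcna, 0.00 to 0.46 for Arntl, -0.27 to 0.33 for Ppp1r3c, -0.04 to 0.35 for Hnf4a and -0.43 to 0.03 for a probe without a gene name. The cause was not tested. Signal over background limited the test to 21073 genes, and 72 of these were dim on all 8 arrays.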

Other observations

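Genes outside the lists were among those called, chosen here after their values were seen. None of those named here was among the 10 genes called in all 8 fits with an array left out. Heyl, a Notch target of vascular smooth muscle, rose by 1.99 (adjusted p = 0.0213), and Spink1, a trypsin inhibitor, by 2.51 (adjusted p = 0.0306). Bard1, the partner of Brca1, rose by 2.30 (adjusted p = 0.0316) and Adora1, an adenosine receptor, by 1.78 (adjusted p = 0.0146). Malat1, a nuclear noncoding RNA, fell by 1.63 (adjusted p = 0.0283), Klf9, a glucocorticoid-induced factor, by 1.35 (adjusted p = 0.0447), Ulk1, a kinase that starts autophagy, by 1.17 (adjusted p = 0.0359) and Usf2, an E-box factor, by 1.41 (adjusted p = 0.0237).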
